A study of Homo sapiens with 9 samples.

Results

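The genes described here are 10 members of the chemokine system: the ligands CCL5, CXCL9, CXCL10, CXCL11, CXCL12, CXCL16, CCL20, CCL28 and CX3CL1, and the receptor CXCR4. They were taken by name, as all probes whose gene name in the files is one of these symbols. They have 15 of the 58201 probes on the array and are 10 of the 43395 genes that these probes stand for. RNA was measured on 9 single-color microarrays, 3 for each of 3 lines made from T47D, a luminal breast cancer cell line in long use. T47D-PA6 cells carry full-length PTH-AS, a long noncoding RNA from the region downstream of the parathyroid hormone gene, in the pTARGET expression vector. T47D-PA5 cells carry an incomplete PTH-AS in the same vector, and T47D-VC1 cells were transfected with the empty vector. T47D-PA5 and T47D-PA6 are each 1 stable line kept after G418 selection for high expression of the insert, so the insert and other features of the chosen line cannot be told apart. T47D-PA5 was included so that effects of bringing in foreign sequence could be separated from those of the complete transcript. The paper's text does not say whether the 3 arrays of a line come from separate cultures, so p-values measure only the spread between these samples, which may be technical.

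Chemokines are small proteins that steer moving cells along a gradient, mostly leukocytes, by binding receptors that signal through G proteins. The ligand families are named for the spacing of their first cysteines (CC, CXC and CX3C), and most members are secreted, while CXCL16 and CX3CL1 are made as membrane proteins that can be shed. In breast cancer the pair of CXCL12 and its receptor CXCR4 is known for its part in the spread of tumor cells, and tumor-made CCL5 for the recruitment of monocytes and macrophages.

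Signals are given on a linear scale after quantile normalization between arrays, and means are geometric means with SDs on the log2 scale. A probe is called well above background as Feature Extraction software marks it, and the lowest signal so marked was 9.59 to 15.2 on the 9 arrays. A gene was tested when a probe of it was well above background on all 3 arrays of any line. This held for 20106 genes and for 5 of the 10 described here (CCL5, CCL28, CXCL12, CXCL16 and CXCR4). The comparisons come from a limma fit to the 9 arrays, p-values were adjusted over the 20106 genes, and the threshold was 0.05. Slide 1, from an earlier scan run, carried replicate 1 of every line. Slide 2 carried replicate 2 of T47D-VC1 and of T47D-PA5, and slide 3 carried replicate 3 of every line beside replicate 2 of T47D-PA6. The comparisons of T47D-PA6 and of T47D-PA5 with T47D-VC1 share the T47D-VC1 arrays. For a gene that a line did not measure, limma tests the signals as read, below background, and its p does not test the bound printed for the fold.

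In T47D-PA6 cells against the T47D-VC1 control, CCL5 and CXCR4 were upregulated and CCL28 was downregulated. These are 2 of the 5 tested members called higher and 1 called lower, where 4.69% of all genes tested were called higher and 5.34% lower. In T47D-PA5 compared with T47D-VC1, CXCR4 was upregulated, 1 of 5 members, beside 1.37% of all genes. No member was called lower in that comparison (0 of 5, beside 0.298% of all genes). Between T47D-PA6 and T47D-PA5, CCL5 was higher and CCL28 was lower in T47D-PA6, 1 of 5 members in each direction, beside 3.65% and 6.06% of all genes. The members' median log2 fold change was 0.16, 0.39 and 0.015 in these comparisons, beside -0.03, -0.03 and -0.001 for all genes. The 5 members tested had to be bright in at least 1 line, so their counts do not describe the 10. CCL5 passed this filter only through T47D-PA5 and T47D-PA6, the lines where it is high. Its count as higher than in T47D-VC1 therefore says nothing about the members as a group. Because the RNA is from bulk cultures, fewer cells that express a gene and less RNA per cell cannot be told apart.

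**Figure D1:**
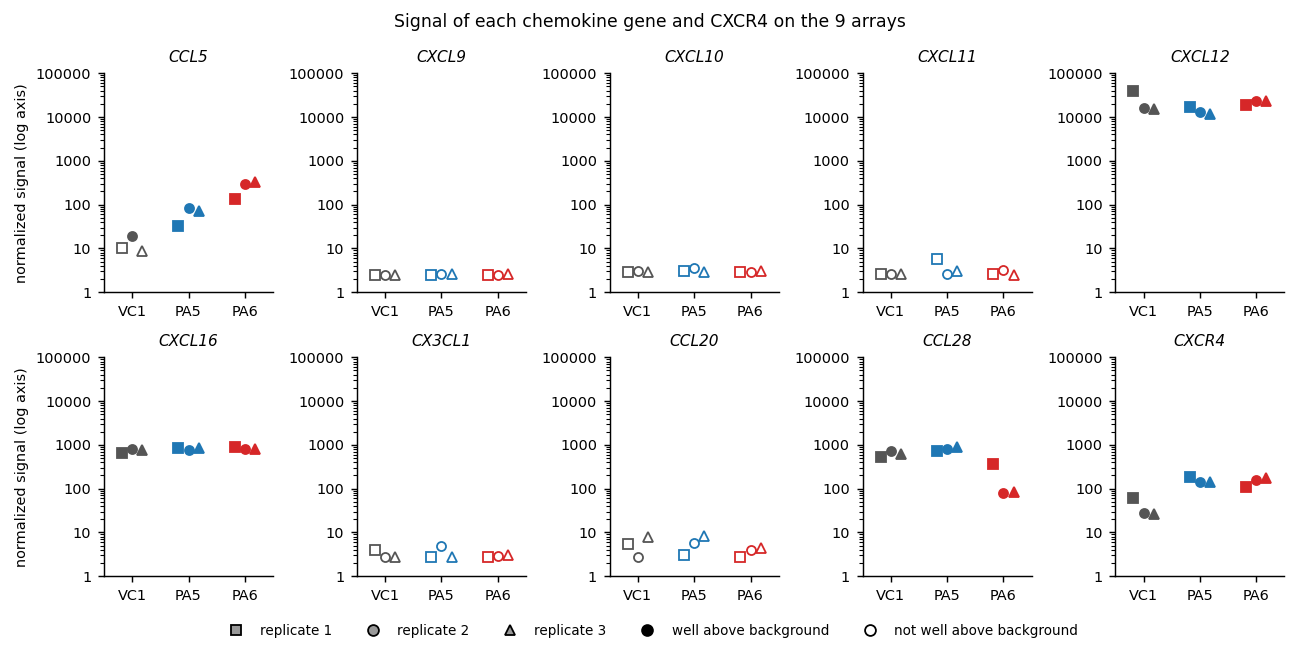
Normalized signal of the 10 genes on each of the 9 arrays (log axis), grouped by line, with a marker shape for each replicate and open markers for arrays on which the probe was not well above background. CCL5 rises from T47D-VC1 through T47D-PA5 to T47D-PA6, CCL28 is lowest in T47D-PA6 with replicate 1 at 358, CXCR4 is lowest in T47D-VC1, and CXCL9, CXCL10, CXCL11, CX3CL1 and CCL20 stay below 9 on all arrays.

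CCL5 attracts T cells, monocytes and eosinophils through receptors such as CCR1 and CCR3, and its probe lies at chr17:34199332-34199391 of hg19. Its signal was 10.5, 19.5 and 8.89 on the T47D-VC1 arrays (replicates 1, 2 and 3), where replicate 2 alone was well above background. On the T47D-PA5 arrays it was 32.6, 85.4 and 71.2, and on the T47D-PA6 arrays 134, 299.5 and 323. Every T47D-PA6 array was above every T47D-PA5 array, every T47D-PA5 array was above every T47D-VC1 array, and replicate 1 was the lowest in both lines with an insert. The log2 fold change of 4.27 in T47D-PA6 over T47D-VC1 (limma adjusted p = 0.00184) was 4.45 with the slide as a block. The T47D-VC1 arrays of slides 1 and 3 were not well above background, so the within-slide differences are bounds, at least 3.42 on slide 1 and at least 4.83 on slide 3. The fitted values over T47D-VC1 use the signals of these arrays as read and are not exact. The log2 fold change was 2.14 after normexp background correction, which adds an offset of 50 to every signal. The unpaired test that the methods name gave an adjusted p of 0.0536, the highest of a range from 0.000571. For T47D-PA5 over T47D-VC1 the log2 fold change was 2.26 (95% confidence interval 1.17 to 3.34), and limma's adjusted p of 0.0589 did not pass. The differences were at least 1.38 within slide 1, 2.13 within slide 2 and at least 2.70 within slide 3, and 7 of 20 alternatives passed, among them the slide block (adjusted p = 0.0152) and the replicate block (0.0182), in a range from 0.0142 to 0.217. Over T47D-PA5, T47D-PA6 was higher by 2.01 (limma adjusted p = 0.0342), by 2.19 with the slide block (0.0125), and by 2.04 and 2.13 within slides 1 and 3. That call held under 12 of 20 alternatives, with adjusted p from 0.00882 to 0.153. It was lost without T47D-PA5 replicate 1 (1.59), without replicate 2 or 3 of T47D-PA5 or T47D-PA6, with no filter, with the compared lines alone in the fit and with the unpaired test.

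CCL28 is a chemokine of mucosal epithelia, the mammary gland included, that attracts antibody-secreting cells through CCR10 and eosinophils through CCR3. Its probe lies at chr5:43381925-43381984 of hg19 and was well above background on all 9 arrays. The signal was 522, 729 and 612 in T47D-VC1 (replicates 1, 2 and 3), 735, 795 and 905 in T47D-PA5, and 358, 80.8 and 85.1 in T47D-PA6. All T47D-PA6 arrays were below all others, but replicate 1 of T47D-PA6 was far closer to the T47D-VC1 arrays than replicates 2 and 3 were. On the log2 scale that replicate stood 2.11 above the mean of the other 2, where the median absolute difference of this kind over all genes of the line was 0.26. The T47D-VC1 arrays averaged 615 (SD 0.24, n = 3), the T47D-PA5 arrays 809 (SD 0.15, n = 3) and the T47D-PA6 arrays 135 (SD 1.22, n = 3).

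Against T47D-VC1, CCL28 in T47D-PA6 had a log2 fold change of -2.19 (SE 0.50, limma adjusted p = 0.0314), with a 95% confidence interval from -3.34 to -1.04. Within slide 1 the difference was -0.54, with 1 array of each line, and within slide 3 it was -2.88. With the slide as a block it was -2.02 and no longer passed (adjusted p = 0.0604), and without T47D-PA6 replicate 1 it was -2.89 (0.000162). Over the 21 alternatives, 11 passed with adjusted p from 0.000162 to 0.2, and the call was lost without replicate 2 or 3 of any of the 3 lines (0.0544 to 0.108), with no filter, with the compared lines alone in the fit and with the unpaired test. Compared with T47D-PA5, CCL28 in T47D-PA6 had a log2 fold change of -2.58 (SE 0.50, limma adjusted p = 0.0169), and the slide block gave -2.41 (0.0413). The within-slide values were -1.04 on slide 1 and -3.45 on slide 3. Here 15 of 21 alternatives passed (9.2e-05 to 0.139), and the call was lost with no filter, with the unpaired test and without replicate 2 or 3 of T47D-PA5 or T47D-PA6. T47D-PA5 arrays were all above T47D-VC1 arrays for CCL28, but the log2 fold change of 0.39 did not pass (95% confidence interval -0.75 to 1.54, limma adjusted p = 0.776).

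CXCL12 is the ligand of CXCR4 and keeps stem cells and lymphocytes in niches such as bone marrow. It is spliced into variants that share the start of the coding sequence and differ at its end, and the array reads it with 4 probes. The probe at the start of the coding sequence and the coding part of the probe in the tail of variant 3 are printed because they show which part of the transcript each reads. They are given 5′ to 3′ along the transcript, from the minus strand of hg19 at chr10:44880394-44880453 and chr10:44871387-44871424, and capitals mark the start codon and the stop codon.
CXCL12 start: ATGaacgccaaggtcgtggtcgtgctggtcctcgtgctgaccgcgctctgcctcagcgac
CXCL12 tail: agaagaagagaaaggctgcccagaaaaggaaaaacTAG
The brightest probe, at the end of variant 1 (chr10:44872888-44872947), gave 40300, 15800 and 15600 in T47D-VC1, 16950, 13070 and 12020 in T47D-PA5, and 18960, 23840 and 22770 in T47D-PA6. Replicate 1 of T47D-VC1 was the highest of the 9 arrays, and T47D-PA6 arrays were all above T47D-PA5 arrays, while T47D-VC1 overlapped with both lines. The probe at the end of variant 2 (chr10:44865617-44865676) read 5217, 2078 and 2281 in T47D-VC1, 2287, 1607 and 1835 in T47D-PA5, and 2983, 2712 and 2647 in T47D-PA6. The start probe read 1741, 784 and 635 in T47D-VC1, 889, 543 and 596 in T47D-PA5, and 1098, 1050 and 1056 in T47D-PA6. All 3 of these probes therefore had their highest value on the same array, and the probe in the variant 3 tail did too.

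None of the 3 comparisons passed for CXCL12. The log2 fold change was 0.02 in T47D-PA6 over T47D-VC1 (95% confidence interval -0.77 to 0.80, limma adjusted p = 0.984), with a within-slide difference of -1.09 on slide 1 and 0.58 on slide 3, so the direction turned between slides. With the slide as a block the value was -0.04. T47D-PA5 over T47D-VC1 gave -0.63 (limma adjusted p = 0.44), the same with the slide as a block, and -1.25, -0.27 and -0.38 within slides 1, 2 and 3. T47D-PA6 over T47D-PA5 gave 0.65 (limma adjusted p = 0.286), 0.59 with the slide as a block, and 0.16 and 0.955 within slides 1 and 3. With replicates 2 and 3 alone, which all come from the later scan run, these comparisons gave 0.57, -0.33 and 0.895, with limma adjusted p of 0.00405, 0.0331 and 0.00124. Over all 21 alternatives the adjusted p ran up to 1, 0.728 and 0.546, and the last comparison also passed without T47D-VC1 replicate 1 (0.0333). T47D-VC1 replicate 1 stood 1.36 above the mean of replicates 2 and 3 on the log2 scale, where the median absolute difference over all genes of that line was 0.25. For the start probe, which reads all variants, the log2 fold changes in the same order were 0.16, -0.53 and 0.69, and for the variant 2 probe they were -0.07, -0.625 and 0.56, and none passed. The variant 3 tail probe (chr10:44871365-44871424) was well above background on 2 T47D-VC1 arrays, 0 T47D-PA5 arrays and 1 T47D-PA6 array, with signals from 2.95 to 25.6, and it was not tested.

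**Figure D2:**
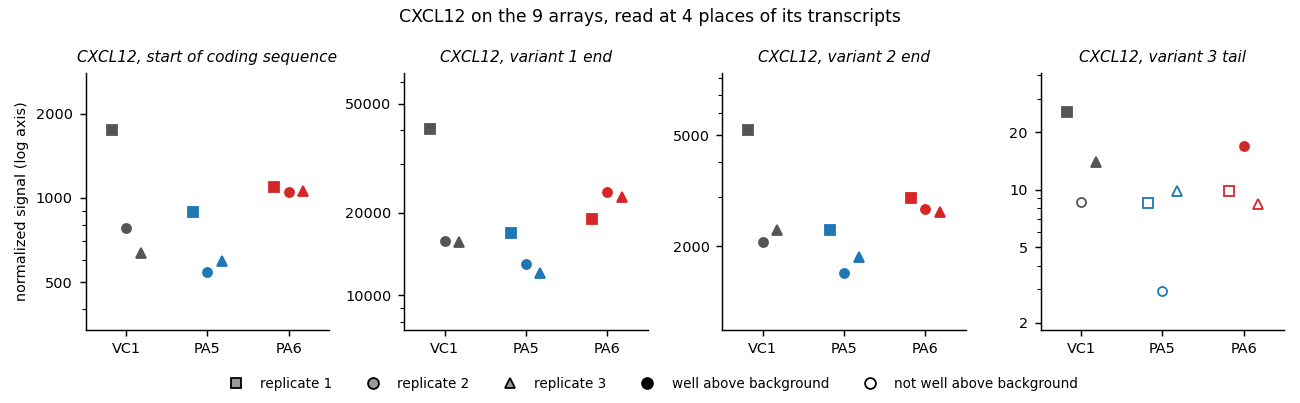
Normalized signal of the 4 CXCL12 probes on the 9 arrays (log axes with a range of their own in each panel), grouped by line, with a marker shape for each replicate and open markers where the probe was not well above background. T47D-VC1 replicate 1 is the highest point in each panel, and in the panels for the start and the ends of variants 1 and 2 all T47D-PA6 points lie above those of T47D-PA5.

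CXCL16 is a membrane-bound ligand of CXCR6 that also takes up oxidized lipoprotein. Its brighter probe (chr17:4637560-4637619 of hg19) gave 666, 813 and 753 in T47D-VC1, 859, 749.8 and 859.7 in T47D-PA5, and 888, 795.5 and 808 in T47D-PA6. The lines overlapped in all comparisons, and their mean signals were 742 (SD 0.145, n = 3), 821 (SD 0.11, n = 3) and 829.6 (SD 0.09, n = 3). The log2 fold changes were 0.16 (95% confidence interval -0.10 to 0.42), 0.15 (-0.11 to 0.40) and 0.015 (-0.24 to 0.27) for T47D-PA6 over T47D-VC1, T47D-PA5 over T47D-VC1 and T47D-PA6 over T47D-PA5. With the slide as a block they were 0.16, 0.15 and 0.02. Within slides they ran from -0.12 to 0.415. Limma's adjusted p was 0.407, 0.602 and 0.954, and no alternative gave one under 0.05 (0.322 to 1). The second probe (chr17:4637807-4637866) lay between 354 and 565 on all arrays and did not pass in any comparison either.

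CXCL9, CXCL10 and CXCL11 are the ligands of CXCR3 that interferon induces, and they draw activated T cells and natural killer cells. Promoter windows of RefSeq on GRCh38.p14, each from 250 bases before to 50 after a transcription start, were searched for 7 members, and the promoters of CCL5, CXCL16 and CX3CL1 were not analysed here. Of the 7, these 3 and CCL20 held a match to a motif of the factors that respond to interferon or to inflammatory signals. The stretches with the matches upstream of the start are printed 5′ to 3′ along the gene, to show the letters found, with the matches in capitals. CXCL9 is at chr4:76007651-76007700, CXCL10 at chr4:76023590-76023738 and CXCL11 at chr4:76036117-76036320, all on the minus strand, and CCL20, an attractant of dendritic cells and helper T cells through CCR6, is at chr2:227813743-227813792 on the plus strand.
CXCL9: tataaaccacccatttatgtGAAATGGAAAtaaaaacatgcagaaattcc
CXCL10: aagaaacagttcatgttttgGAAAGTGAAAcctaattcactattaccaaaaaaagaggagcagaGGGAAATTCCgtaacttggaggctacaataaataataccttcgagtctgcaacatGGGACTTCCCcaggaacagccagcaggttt
CXCL11: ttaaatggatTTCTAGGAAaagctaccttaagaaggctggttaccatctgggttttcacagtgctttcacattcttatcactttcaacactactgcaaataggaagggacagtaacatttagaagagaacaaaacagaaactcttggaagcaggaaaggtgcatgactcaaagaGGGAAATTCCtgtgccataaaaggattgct
CCL20: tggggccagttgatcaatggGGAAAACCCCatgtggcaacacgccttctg
The capitals in CXCL9 and the first in CXCL10 match the core of the interferon-stimulated response element (GAAA, any 2 bases, GAAA). The first capitals in CXCL11 match the gamma interferon activation site, TTCNNNGAA, of which CXCL11 has 1 more match after its start. All other capitals match the NF-kB consensus, in CCL20 on the opposite strand. Both strands were searched, and none of the 8 matches overlapped with another. Of all 35116 promoter windows, 3.57% held the response element core, 7.66% the gamma activation site and 5.91% the NF-kB consensus, and among the 7 members 2, 1 and 3 did. The windows of CCL28 (2), CXCL12 (1) and CXCR4 (3) held none of these letters. A match describes the sequence and does not show that a factor binds there.

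On the arrays none of these 4 genes, nor CX3CL1, was well above background on any of the 9 arrays. Their signals were 2.5 to 2.555 for CXCL9, 2.49 to 2.56 and 2.905 to 3.66 for the 2 probes of CXCL10, and 2.53 to 5.88 for CXCL11. They were 2.725 to 8.25 for CCL20 and 2.77 to 4.95 for CX3CL1, the ligand of CX3CR1. All of these lie below the signals that the software marks as well above background, so no order of the lines can be read from them. When limma was run with no filter on dim probes, 0 of these 5 genes had an adjusted p under 0.05 in any comparison (0.835 to 1, 0.783 to 1 and 0.657 to 0.988), and 0 had an unadjusted p under 0.05. The probes lie at chr4:76922796-76922855 (CXCL9), chr4:76942934-76942993 and chr4:76943520-76943579 (CXCL10), chr4:76955615-76955674 (CXCL11), chr2:228681100-228681836 (CCL20) and chr16:57418025-57418084 (CX3CL1) of hg19.

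CXCR4 is the receptor of CXCL12 and the only receptor among the 10 genes. Its probe (chr2:136871953-136872012 of hg19) is spotted 10 times on each array, and the spots were averaged. The signal was 60.4, 28.3 and 26.85 in T47D-VC1 (replicates 1, 2 and 3), 182, 139 and 143 in T47D-PA5, and 111, 158 and 179.7 in T47D-PA6. All arrays of T47D-PA5 and T47D-PA6 were above all T47D-VC1 arrays, and these lines overlapped with each other. Replicate 1 was the highest array of T47D-VC1 and of T47D-PA5 and the lowest of T47D-PA6. The T47D-VC1 arrays averaged 35.8 (SD 0.65, n = 3), the T47D-PA5 arrays 154 (SD 0.21, n = 3) and the T47D-PA6 arrays 147 (SD 0.36, n = 3).

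CXCR4 was upregulated 4.1-fold in T47D-PA6 over T47D-VC1, or by 2.04 on the log2 scale (SE 0.32, limma adjusted p = 0.00724). With the slide as a block it was 1.95 (adjusted p = 0.0225), and the within-slide differences were 0.88 on slide 1 and 2.65 on slide 3. Of 21 alternatives 20 passed, and the unpaired test did not (0.107, in a range from 0.000149), while normexp background correction gave 1.09. In T47D-PA5 over T47D-VC1 the receptor was upregulated 4.29-fold, or by 2.10 on the log2 scale (SE 0.32, limma adjusted p = 0.0178). The slide block gave 2.10 (adjusted p = 0.028), and slides 1, 2 and 3 gave 1.59, 2.30 and 2.415. Here 15 of 21 alternatives passed (0.000405 to 0.164), and the call was lost without replicate 2 or 3 of T47D-VC1 or T47D-PA5 (0.0642 to 0.0803), with no filter and with the unpaired test, while normexp gave 1.13. Between T47D-PA6 and T47D-PA5 the log2 fold change of CXCR4 was -0.065 (95% confidence interval -0.79 to 0.66, limma adjusted p = 0.93). It was -0.15 with the slide as a block, -0.71 within slide 1 and 0.24 within slide 3, and the direction also turned without replicate 1 of either line. The higher level of CXCR4 was thus seen in the line with incomplete PTH-AS as well as in the line with full-length PTH-AS.

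**Figure D3:**
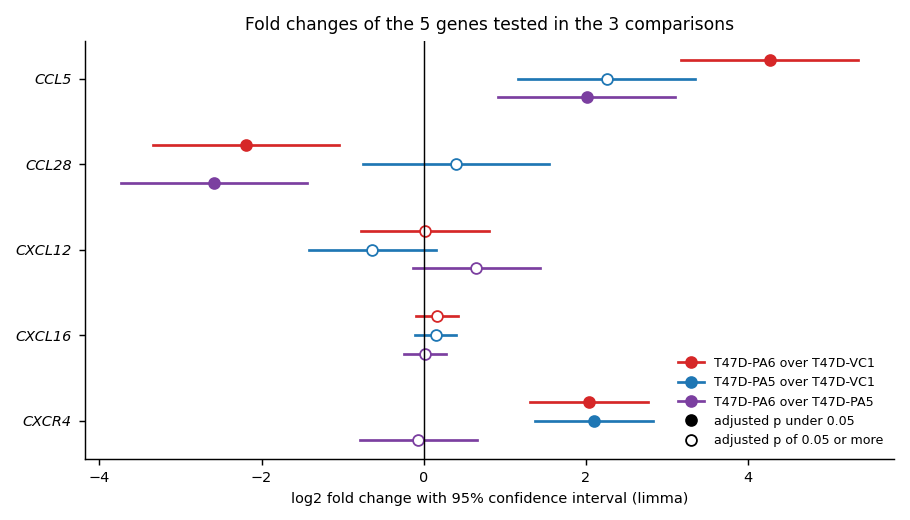
Log2 fold changes of the 5 genes tested, with 95% confidence intervals from limma, in the 3 comparisons. Filled points have an adjusted p under 0.05: CCL5 at 4.27 and 2.01, CCL28 at -2.19 and -2.58, and CXCR4 at 2.04 and 2.10, while the intervals of CXCL12 and CXCL16 all include 0.

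The definition in the methods is a signal above 2 or below 0.6 times that of the control, with no test. It was applied here to the ratio of mean signals to T47D-VC1, and the use of means was a choice made here. CCL5 (19.4) and CXCR4 (3.89) were above the limit in T47D-PA6, 2 of 5 members beside 3.46% of all genes tested. CCL28 (0.281) was below it, 1 of 5 beside 4.09%. In T47D-PA5, CCL5 (4.86) and CXCR4 (4.02) were above, 2 of 5 beside 2.15%, and CXCL12 (0.586) was below, 1 of 5 beside 1.83%. The count of CXCL12 rests on T47D-VC1 replicate 1, without which the ratio was 0.892, and it also ended with a 75th percentile shift (0.625), with normexp (0.605) and without T47D-PA5 replicate 2 (0.606) or 3 (0.628). The ratio of CCL28 in T47D-PA6 was 0.134 without replicate 1 of that line. After normexp the ratio of CCL5 in T47D-PA5 was 1.75, which also ends its count, while in T47D-PA6 it was 4.61. The CCL5 ratios are not exact, because replicate 2 was the only T47D-VC1 array on which its probe was well above background. CCL5 was also tested only through T47D-PA5 and T47D-PA6, where it is high.

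To place each tested member among all genes, the genes whose log2 values relative to their own T47D-VC1 mean differed least from the member's over the 9 arrays were found, as a root mean square difference. For CCL5 these were OAS2 (0.32), BATF2 (0.39) and IFIT2 (0.46), where the median over all genes was 2.875. Known interferon-stimulated genes are among these, OAS2 and IFIT2 for example. For CXCR4 they were PMP22 (0.25), SYTL2 (0.29) and AGPAT4 (0.30), against a median of 1.77, and for CCL28 FMN2 (0.31) was among the nearest, against 1.43. BRME1 (0.18) and RAB17 (0.20) were near CXCL12 (median 0.59), and MMP15 (0.06) was near CXCL16 (median 0.33). These lists describe the same 9 arrays and say nothing of shared control.

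Other chemokine ligands were read from a list of 39 genes, of which 35 are on the array and 10 were tested. In T47D-PA6 over T47D-VC1, 1 was called higher and 1 lower (beside 4.69% and 5.34% of all genes), and the median log2 fold change was -0.21, beside -0.03 for all genes. It was -0.19 with a gene that T47D-PA6 did not measure taken at its bound and a gene that neither line measured left out. CCL3, a monocyte attractant that binds CCR1, had 327, 418 and 463 in T47D-VC1, 642.5, 503 and 542 in T47D-PA5, and 563, 723 and 761 in T47D-PA6. T47D-PA6 lay above T47D-VC1 on every array, with a log2 fold change of 0.76 (limma adjusted p = 0.0305), which the slide block changed to 0.70 (0.0535), and 0.78 and 0.68 within slides 1 and 3. The adjusted p ranged from 0.00308 to 0.148, with 11 of 21 alternatives passing.

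CXCL14, a ligand made by normal epithelia, differed most among the replicates of a line. Its signal in T47D-VC1 was 12.2, 381 and 350.3, where replicate 1 was not well above background, and in T47D-PA5 it was 27.6, 26.15 and 27.5. In T47D-PA6 it was 2.82, 3.43 and 2.51, well above background on 0 of 3 arrays. The mean of T47D-VC1 was at least 10.1-fold higher than that of T47D-PA6, a bound set by the lowest signal well above background on the T47D-PA6 arrays. That T47D-VC1 mean includes replicate 1. CXCL14 is the ligand counted as lower, on the signals as read (limma adjusted p = 0.0234, with 12 of 20 alternatives passing in a range from 3.48e-06 to 0.183), and the call is not one of measured levels in T47D-PA6. On these signals the log2 fold change was -5.34, and it was -6.98 without T47D-VC1 replicate 1 and -4.50 without T47D-VC1 replicate 2. Over the 20 alternatives it ran from -6.98 to -2.05, so the bound holds only for the signals as normalized here. On slide 1 neither line measured the gene, and on slide 3 T47D-PA6 is bounded at -5.07 or lower against T47D-VC1 on the log2 scale. T47D-PA5 was at least 2.34-fold above T47D-PA6, and that comparison did not pass. In T47D-PA5 over T47D-VC1 the log2 fold change of CXCL14 was -2.12 and did not pass (limma adjusted p = 0.431), and the direction turned on slide 1, where T47D-PA5 was higher by at least 1.14. In that comparison 0 of the 10 ligands were called higher and 0 lower, beside 1.37% and 0.298% of all genes, with a median of -0.03 for the list and for all genes.

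CXCL1, a neutrophil attractant, was well above background only in T47D-PA5, at 23.7, 17.1 and 20.9. Against T47D-PA6 (3.64, 6.45 and 9.86) T47D-PA5 was at least 1.76-fold higher, on the signals as normalized here. Over the 20 alternatives the log2 fold change of T47D-PA6 over T47D-PA5 ran from -2.07 to -0.26. CXCL1 passed the filter only through T47D-PA5, where it is high, so its count says nothing about the ligands as a group. It was the only ligand of the list called between these lines (0 higher and 1 lower in T47D-PA6, beside 3.65% and 6.06% of all genes), where the list's median was 0.10. That call is on signals that T47D-PA6 did not measure (limma adjusted p = 0.0449), the slide block gave 0.106, and 7 of 20 alternatives passed (0.0321 to 0.141). CXCL8, another neutrophil attractant, was well above background on 0 of 9 arrays.

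Of 22 other receptors, all on the array, 7 were tested. In T47D-PA6 over T47D-VC1, CCR1 and CXCR3 were called higher and CCR7 lower, 2 and 1 of 7 beside 4.69% and 5.34% of all genes, with a median log2 fold change of 0.11 for the list. CCR7, which guides lymphocytes and dendritic cells to lymph nodes, had 108, 136 and 122.9 in T47D-VC1, 127, 131 and 159 in T47D-PA5, and 50.8, 44.3 and 48.2 in T47D-PA6. All 3 T47D-PA6 arrays were below all others and close together. The log2 fold change was -1.35 over T47D-VC1 (SE 0.13, limma adjusted p = 0.00087) and -1.54 over T47D-PA5 (SE 0.13, adjusted p = 0.000942), and both calls held under all 21 alternatives, with normexp values of -0.71 and -0.83. Within slides 1 and 3 the values were -1.09 and -1.41 over T47D-VC1, and -1.32 and -1.78 over T47D-PA5, and with the slide as a block they were -1.35 and -1.53.

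CXCR3, the receptor of CXCL9, CXCL10 and CXCL11, had 85.8, 113 and 111 in T47D-VC1, 129, 145 and 145 in T47D-PA5, and 181, 258 and 247 in T47D-PA6. The lines did not overlap. Its log2 fold change was 1.14 over T47D-VC1 (SE 0.17; limma adjusted p = 0.00534) and 0.70 over T47D-PA5 (adjusted p = 0.0342), and the slide block gave 1.13 and 0.69. Within slides 1 and 3 it was 1.08 and 1.185 over T47D-VC1 and 0.49 and 0.80 over T47D-PA5. The call over T47D-PA5 held under 12 of 21 alternatives (0.00107 to 0.129), and T47D-PA5 over T47D-VC1 did not pass (0.45, adjusted p = 0.237). CCR1, a receptor of CCL5 and CCL3, was well above background on 0 T47D-VC1 arrays, 2 T47D-PA5 arrays and 3 T47D-PA6 arrays. Its signals were 2.67, 3.96 and 4.78, then 23.2, 8.63 and 13.6, then 17.1, 27.85 and 24.35 in the same order of lines. T47D-PA6 was at least 1.81-fold above T47D-VC1, and T47D-PA5 at least 1.12-fold, on the signals as normalized here. Over the 20 alternatives the log2 fold change of CCR1 ran from 0.40 to 2.815 in T47D-PA6 and from 0.25 to 2.265 in T47D-PA5. CCR1 passed the filter only through T47D-PA6, where it is high, so its counts as higher say nothing about the receptors as a group. Both calls are on signals that T47D-VC1 did not measure (limma adjusted p = 0.00477 and 0.0442), and that of T47D-PA5 passed under 7 of 20 alternatives (0.024 to 0.228) and not with the slide block (0.0529). The CCL28 receptor CCR10 (mean signals 603, 864 and 716) was measured on all 9 arrays and did not pass in any comparison. CXCR6, the receptor of CXCL16, and ACKR3, a scavenging receptor of CXCL12, were well above background on 0 of 9 arrays. In T47D-PA5 over T47D-VC1 the list had 1 gene called higher and 0 lower (beside 1.37% and 0.298% of all genes) with a median of 0.18. In T47D-PA6 over T47D-PA5 it had 1 higher and 1 lower (beside 3.65% and 6.06%) with a median of 0.07.

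A list of 13 genes holds proteases and heparan sulfate genes that cleave, trim or present chemokines, with 1 cytokine that binds their receptors, and 11 were tested. Of these, 1 was called higher in T47D-PA6 over T47D-VC1 (beside 4.69% of all genes), 1 over T47D-PA5 (3.65%) and 0 in T47D-PA5 over T47D-VC1 (1.37%), and 0 were lower in all (beside 5.34%, 6.06% and 0.298%). The medians were 0.16, 0.02 and 0.07 in that order. The gene called was ADAM10, a protease that sheds CXCL16 and CX3CL1 from the membrane, with 741, 721 and 756 in T47D-VC1, 777, 779.6 and 770.2 in T47D-PA5, and 963, 1002 and 985 in T47D-PA6. Its log2 fold change was 0.41 over T47D-VC1 (limma adjusted p = 0.0177, with 16 of 21 alternatives passing, 0.00548 to 0.0754) and 0.34 over T47D-PA5 (0.0336), and over T47D-PA5 the slide block gave 0.33, which did not pass (0.0552, in a range from 0.00933 to 0.131). Within slides 1 and 3 the differences were 0.38 and 0.39 over T47D-VC1, and 0.31 and 0.37 over T47D-PA5. All T47D-PA6 arrays were above all others, by a small margin in fold.

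Of 20 genes that carry the signal of chemokine receptors or end it, 16 were tested, with 3 called higher and 0 lower in T47D-PA6 over T47D-VC1 (beside 4.69% and 5.34% of all genes) and a median of 0.195. GNAI1, an inhibitory G protein subunit of the kind these receptors use, had 18.75, 25.3 and 28.8 in T47D-VC1, 24.4, 26.4 and 24.2 in T47D-PA5, and 67.4, 107.4 and 90.7 in T47D-PA6. It stood apart in T47D-PA6, higher by 1.86 on the log2 scale over T47D-VC1 (limma adjusted p = 0.00165) and 1.80 over T47D-PA5 (0.00264). Within slides 1 and 3 these were 1.85 and 1.78, and 1.47 and 2.03, and after normexp 0.86 in each, and 20 and 21 of 21 alternatives passed. GRK3, a kinase that desensitizes receptors, had means of 78.9, 119 and 226 in T47D-VC1, then T47D-PA5, then T47D-PA6. It was higher in T47D-PA6 by 1.52 over T47D-VC1 (limma adjusted p = 0.00476) and by 0.92 over T47D-PA5 (0.032), and by 1.31 and 1.70, and 0.90 and 0.84, within slides 1 and 3. The call over T47D-VC1 held under 20 of 21 alternatives (0.000655 to 0.0667, with normexp at 1.01), and that over T47D-PA5 under 12 of 21 (0.0026 to 0.153). GRK5, of the same kinase family, was higher by 1.09 over T47D-VC1 (limma adjusted p = 0.0396), but only by 0.18 within slide 1 against 1.59 within slide 3 and 0.60 after normexp, and did not pass with the slide block (0.0673, in a range from 0.000485 to 0.193). RGS2, which speeds the shutdown of G proteins, had a level of its own in T47D-PA5. It had 22.5, 18.8 and 18.9 in T47D-VC1, 40.4, 47.65 and 55.8 in T47D-PA5, and 24.9, 21.2 and 25.25 in T47D-PA6, so only T47D-PA5 stood apart. Its log2 fold change was 1.25 in T47D-PA5 over T47D-VC1 (limma adjusted p = 0.0056) and -1.003 in T47D-PA6 over T47D-PA5 (0.00609), and the within-slide values were 0.85, 1.345 and 1.56, and -0.70 and -1.27. Each call held under 20 of 21 alternatives, but after normexp the values were 0.43 and -0.36. It was the 1 gene of 16 called higher in T47D-PA5 over T47D-VC1 (0 lower, median 0.055), beside 1.37% and 0.298% of all genes. In T47D-PA6 over T47D-PA5 the list had 2 higher and 1 lower (median 0.16), beside 3.65% and 6.06%.

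**Figure D4:**
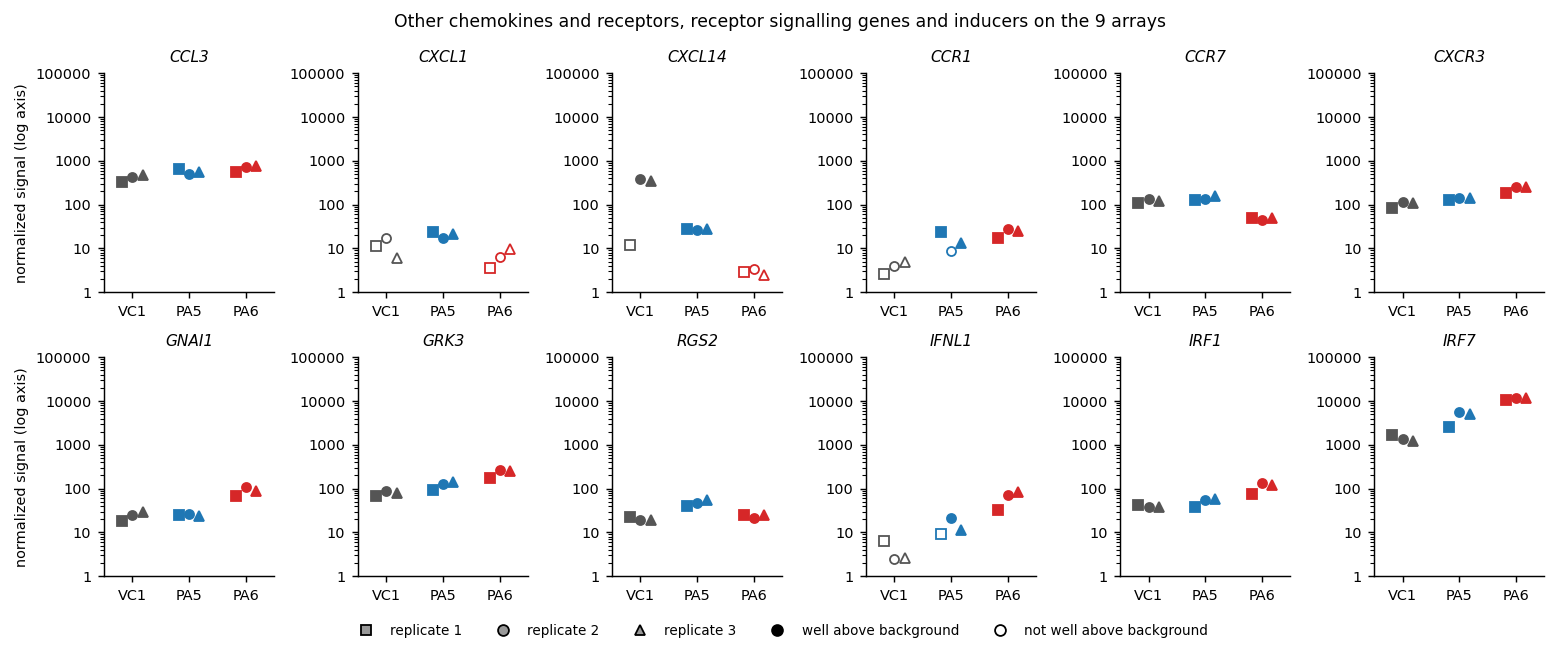
Normalized signal of 12 genes of the chemokine lists on each of the 9 arrays (log axis), grouped by line, with a marker shape for each replicate and open markers for arrays on which the probe was not well above background. CCR7 lies at 44.3 to 50.8 in T47D-PA6 and above 108 elsewhere, CXCL14 is split among the T47D-VC1 arrays at 12.2, 381 and 350.3, and RGS2 is highest in T47D-PA5.

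The last list holds 23 genes around chemokine induction, namely cytokines, cytokine receptors and transcription factors, with 2 inhibitors of NF-kB, and 18 were tested. In T47D-PA6 over T47D-VC1, 5 were called higher and 0 lower (median 0.275), beside 4.69% and 5.34% of all genes, and in T47D-PA6 over T47D-PA5 again 5 higher and 0 lower (median 0.13), beside 3.65% and 6.06%. In T47D-PA5 over T47D-VC1, 1 was called higher and 0 lower (beside 1.37% and 0.298%), with a median of 0.115, or 0.07 with IFNL1 at its bound. IRF7, a transcription factor of the interferon response, had 1673, 1362 and 1257 in T47D-VC1, 2513, 5494 and 5029 in T47D-PA5, and 10660, 11700 and 11730 in T47D-PA6. The lines did not overlap, and replicate 1 of T47D-PA5 was the lowest of its line. For IRF7 the log2 fold change came to 2.999 in T47D-PA6 over T47D-VC1 (limma adjusted p = 0.000724), 1.53 in T47D-PA5 over T47D-VC1 (0.0328) and 1.47 in T47D-PA6 over T47D-PA5 (0.0145). Within slides these were 2.67 and 3.22, then 0.59, 2.01 and 2.001, then 2.085 and 1.22. The call in T47D-PA5 over T47D-VC1 held under 12 of 21 alternatives (0.000456 to 0.22), and that in T47D-PA6 over T47D-PA5 under 17 of 21 (0.000894 to 0.117).

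IFNL1, an interferon of the lambda type, was well above background on 0 T47D-VC1 arrays (6.52, 2.45 and 2.62), on 2 T47D-PA5 arrays (8.99, 21.2 and 11.4) and on all T47D-PA6 arrays (33.4, 72.8 and 81.9). T47D-PA6 was at least 4.68-fold above T47D-VC1, and T47D-PA5 at least 1.04-fold, on the signals as normalized here. Over the 20 alternatives the log2 fold change of T47D-PA6 over T47D-VC1 ran from 1.005 to 4.93. IFNL1 passed the filter only through T47D-PA6, where it is high, so its counts as higher say nothing about the list as a group. The call in T47D-PA6 is on signals that T47D-VC1 did not measure (limma adjusted p = 0.00256), and T47D-PA5 did not pass. Over T47D-PA5 the log2 fold change was 2.17 (limma adjusted p = 0.03), at least 1.14 within slide 1, where T47D-PA5 was not well above background, and 2.76 within slide 3, and it did not pass with the slide block (0.0722, in a range from 0.00472 to 0.122). IRF1, which acts at many interferon-induced promoters, had means of 39.0, 50.1 and 109 in T47D-VC1, then T47D-PA5, then T47D-PA6. It was higher in T47D-PA6 by 1.48 over T47D-VC1 (limma adjusted p = 0.00901; 0.85 and 1.80 within slides) and by 1.12 over T47D-PA5 (0.025; 0.98 and 1.14 within slides). The latter held under 13 of 21 alternatives (0.00081 to 0.153), and after normexp the values were 0.71 and 0.55. TNFRSF1A, a receptor of tumor necrosis factor, was higher by 0.54 over T47D-VC1 (limma adjusted p = 0.0113) and 0.46 over T47D-PA5 (0.0208), and RELB, an NF-kB subunit, by 0.55 over T47D-VC1 (0.0179). These calls held under 18, 17 and 15 of 21 alternatives, with adjusted p up to 0.0622, 0.0929 and 0.089. IFNGR1, a receptor chain of interferon gamma, was higher by 0.47 over T47D-PA5 (limma adjusted p = 0.036), but not with the slide block (0.0659, in a range from 0.00579 to 0.142). IFNG itself was well above background on 0 of 9 arrays, and IFNB1 on 2 arrays, both of T47D-PA6 (10.68 and 16.3).

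The arrays were checked for the cell type and for other cells that make or receive chemokines. All 10 markers of luminal breast epithelium were well above background on all 9 arrays. Of these, PGR fell by 1.07 on the log2 scale in T47D-PA6 compared with T47D-VC1 (limma adjusted p = 0.00724) and TFF1 rose by 1.62 (0.00111), and these were the 1 marker of 10 called lower and the 1 called higher, beside 5.34% and 4.69% of all genes. Compared with T47D-PA5 they were again the genes called, PGR at -0.69 (limma adjusted p = 0.0367, and 0.088 with the slide block, in a range from 0.000708 to 0.143) and TFF1 at 1.23 (0.00452), 1 lower and 1 higher beside 6.06% and 3.65% of all genes. In T47D-PA5 over T47D-VC1, 0 of 10 were called in either direction, beside 1.37% and 0.298%. The list's median was 0.11 for T47D-PA6 over T47D-VC1, 0.01 for T47D-PA5 over T47D-VC1 and -0.05 for T47D-PA6 over T47D-PA5. Of the leukocyte markers, CD3E, MS4A1 and CSF1R were well above background on 0 arrays, while PTPRC, CD8A and CD14 were on all 9. PTPRC, which marks leukocytes as a whole, had mean signals of 20.3, 20.8 and 18.0 in T47D-VC1, then T47D-PA5, then T47D-PA6. CD14, a monocyte marker that epithelial cells can also express, rose by 1.80 in T47D-PA6 over T47D-VC1 (limma adjusted p = 0.00821, with 0.85 and 2.17 within slides 1 and 3 and 1.08 after normexp). In T47D-PA5 over T47D-VC1 the value for CD14 was 1.27 and did not pass (limma adjusted p = 0.0731). T47D-PA6 over T47D-PA5 gave 0.53 (limma adjusted p = 0.297). Of the 5 leukocyte markers tested, 1 (CD14) was called higher and 0 lower in T47D-PA6 over T47D-VC1 (beside 4.69% and 5.34% of all genes), and 0 were called in T47D-PA5 over T47D-VC1 (1.37% and 0.298%) or in T47D-PA6 over T47D-PA5 (3.65% and 6.06%). The list medians were 0.13, 0.205 and -0.075 in that order. Of 8 markers of fibroblasts and endothelium, 3 were well above background on all 9 arrays (COL1A1, VWF and CDH5) and 4 on 0. Their summed signal was 457, 410 and 416 in T47D-VC1, 376, 418 and 382 in T47D-PA5, and 338, 297 and 321 in T47D-PA6, most of it from COL1A1, which fell by 0.50 on the log2 scale in T47D-PA6 compared with T47D-VC1 (limma adjusted p = 0.0198, with 17 of 21 alternatives passing, 0.0128 to 0.0823). It was the 1 of 3 markers tested that was called lower there (0 higher, beside 5.34% and 4.69% of all genes), and 0 of 3 were called in the other comparisons, beside the shares given for the leukocyte markers. The list medians were -0.44, -0.16 and -0.34. The part of these markers in the chemokine values was not tested.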

How the data were processed

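The authors deposited, for each of the 9 arrays, the intensity of every spot from Feature Extraction, background-subtracted and detrended within the array. The file headers name version 10.7.1.1, and the submitters' processing notes and the methods name 9.5.1.1. A deposited matrix of intensities that the authors quantile-normalized was used here as an alternative. Of 62976 spots per array, 60901 are not controls, 46 to 117 per array were dropped as outliers and 0 were saturated. From 44.04% to 48.02% of probes were well above background, and the number of arrays limits the precision.

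Spots of a probe were averaged as log2 intensity and quantile-normalized between arrays, as the methods state. Probes well above background on all 3 arrays of any line were tested (26171), and the tested probe with the highest mean stood for its gene. Names were updated from RefSeq genes (31127 probes by symbol, 3343 by accession, 496 by synonym, 23235 kept the file's name). The comparisons used limma 3.58.1 under R 4.3.3 (lmFit, eBayes, 6 residual degrees of freedom, two-sided, Benjamini-Hochberg adjustment). Files were read with data.table (1.17.8), and the fit was tested on simulated data. A fold against a line with no array well above background is a bound: the dim line is set, array by array, to the lowest signal so marked on that array wherever it reads less. Such a bound holds for the signals as normalized here and not under every alternative. The other line keeps its own values, some of which were not well above background for CXCL14, CCR1 and IFNL1.

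The members and gene lists were chosen with earlier results of these data known. Named are the 10 members, the genes of each list called in any comparison (at most 6 per list, by size), the 3 genes nearest to each tested member, and the cell type markers measured. CCR10, CXCR6, ACKR3, CXCL8, IFNG and IFNB1 were added after their values were seen. Of the nearest genes, those with only a transcript number or a noncoding RNA name are not printed. Some genes of the lists are not reported here.

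Arrays with the same replicate number deviated together from their line means across genes in T47D-PA6 and T47D-VC1 (r = 0.34, 0.13 and 0.24 for replicates 1, 2 and 3) and in T47D-PA6 and T47D-PA5 (0.27, 0.17 and 0.17). Slides and replicate numbers largely coincide. Replicates 1 and 3 of all lines share slides 1 and 3, and replicate 2 of T47D-VC1 and of T47D-PA5 share slide 2. Only replicate 2 of T47D-PA6 is on another slide. The separate parts of slide and replicate number in these correlations were not tested. The alternatives were a 75th percentile shift, normexp with an offset of 50, the authors' own normalization, no filter or a strict filter on dim probes, the mean of a gene's probes, slide and replicate blocks, the later scan run alone, each array left out, an intensity trend, the compared lines alone, and the unpaired test that the methods name. qRT-PCR, ELISA and xenograft data were not analysed here.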

Additional observations from a re-analysis of the deposited data

How the results depend on the processing

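Of 50 gene results, 9 kept their direction and their side of the threshold under all alternatives run for them (up to 21, of which 9 leave out 1 array), and where the others changed, the cause was not tested unless named. Genes called numbered 2017 in T47D-PA6 over T47D-VC1, 335 in T47D-PA5 over T47D-VC1 and 1952 in T47D-PA6 over T47D-PA5. With no filter on dim probes, which adds genes to the adjustment, they were 1285, 198 and 1262, and 0 members were called in the last 2 comparisons. With the later scan run alone they were 7469, 4309 and 7142, with 3 members called in T47D-PA5 over T47D-VC1. The unpaired test called 432, 39 and 790 genes and 0 members in all 3 comparisons. The compared lines alone in the fit gave 1146 genes in T47D-PA6 over T47D-VC1 and 1 member in T47D-PA6 over T47D-PA5. The strict filter also gave 1 there, because it removes CCL5 and leaves 4 members tested. With the slide as a block, 608 genes and 2 members were called in T47D-PA5 over T47D-VC1. With 1 array left out, the genes called ranged from 703 (without T47D-PA6 replicate 3) to 2768 (without T47D-PA6 replicate 1), from 99 (without T47D-PA5 replicate 3) to 621 (without T47D-PA6 replicate 1), and from 726 (without T47D-PA6 replicate 2) to 2950 (without T47D-PA6 replicate 1), where the members called were 2 to 3, 0 to 2 and 0 to 3. Members called in T47D-PA5 over T47D-VC1 numbered 2 with the 75th percentile shift and 2 with an intensity trend. With the replicate block, 2617, 490 and 2427 genes were called, and 2 members in T47D-PA5 over T47D-VC1, where CCL5 passed (adjusted p = 0.0182) and CCR1 did not (0.0724, in a range from 0.024 to 0.228). In T47D-PA6 over T47D-PA5 the replicate block ended the calls of CXCL1 (0.0696), IFNL1 (0.0524) and PGR (0.0612, in ranges up to 0.141, 0.122 and 0.143), and it changed no other gene's call. In T47D-PA5 and T47D-VC1 the arrays with the same number share a slide (r = 0.21, 0.099 and 0.12 for replicates 1, 2 and 3). By the methods' definition 1518 genes in T47D-PA6 and 800 in T47D-PA5 passed, with normexp 516 and 221, and with no filter 4348 and 2853. With 1 array left out they were 1544 to 1831 and 849 to 961, and leaving arrays out of this count was chosen after seeing the data. Small differences changed sign: CXCL16 in T47D-PA6 over T47D-PA5 (0.015) was -0.034 with the 75th percentile shift, -0.046 with the mean of its probes, -0.002 with the later scan run alone and -0.05 to 0.048 with 1 array left out. CXCL12 in T47D-PA6 over T47D-VC1 (0.017) was -0.042 with the slide as a block and -0.214 to 0.47 with 1 array left out. CXCR4 in T47D-PA6 over T47D-PA5 (-0.065) was 0.255 with the later scan run alone and -0.211 to 0.135 with 1 array left out. Signals near background limit CCL5, CCR1, IFNL1, CXCL1 and CXCL14 in the lines where they are dim, and no value was read for CXCL9, CXCL10, CXCL11, CX3CL1 and CCL20.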
